A study of Rattus with 52 samples.

Results

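T cells, natural killer (NK) cells, B cells and plasma cells are described here through 28 of their genes, measured in the kidney and the left ventricle (LV) of rats with and without loss of kidney mass. The genes were taken by symbol from a list of 29, and 28 of the 29 were matched among the 20624 genes of the table of individual libraries. Cd5 had no matching row and was not analysed here. The 28 genes comprise 7 of the T cell receptor complex and its co-receptors, 8 of T cell surface and signalling, 5 of B cells, 2 of antibody-secreting cells and 6 of cytotoxic granules and NK receptors.

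A T cell recognises antigen through a receptor that signals by the CD3 chains and the zeta chain, with CD4 or CD8 as co-receptor and the kinases Lck and Zap70 behind it. A B cell signals through CD79A and CD79B and can mature into a plasma cell, which secretes antibody. NK cells and cytotoxic T cells kill target cells with perforin and granzymes and carry inhibitory and activating receptors. Lymphocytes are scarce in healthy kidney and heart tissue, and T and B cells are known to gather in the interstitium of chronically injured kidneys.

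Male Sprague Dawley rats had surgery at 10 weeks of age, either Sham or 5/6Nx, in which the right kidney and both poles of the left were removed, so that the 5/6Nx kidney libraries come from the remnant of the left kidney. A peritoneal catheter was placed in every rat 5.5 weeks later, and omentum was removed from every rat. From week 6 the PD groups received peritoneal dialysate 3 times a day for 8 days, whereas the Control groups carried the catheter alone, and tissue was taken at week 7. Each tissue thus gave 6 Sham Control, 6 Sham PD, 7 5/6Nx Control and 7 5/6Nx PD libraries, and the labels name no rat. Library numbers of hearts and kidneys can be matched at a constant difference in each group. The authors' supplement also gives 5/6Nx hearts and kidneys the same sample IDs. A pairing by rat was not used here.

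Levels are given below as normalized reads, the whole reads recovered from the deposited log2 values and divided by each library's size factor. Fold changes from the test are differences on the deposited log2 scale. On that scale 10 normalized reads stand at 6.50, 100 at 7.67 and 1000 at 10.13, so a log2 difference is smaller than the ratio of the reads where reads are few, and for several genes of the first comparison the ratio of the group medians is given too. A gene was called where its adjusted p in limma was under 0.05 over all genes tested. Values at the lowest deposited number are described as listed at 0. In groups whose median was at least 30 reads, 738 of 756781 values were listed at 0, so a listed 0 is not always an absence of the transcript.

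The 52 libraries held 16.7 M to 111.8 M reads (median 44.2 M). Summed markers of kidney epithelium were 179076 to 777021 in kidney libraries and at most 431 in LV libraries, and summed cardiomyocyte markers were at least 2283051 in LV libraries and at most 778 in kidney libraries. A few libraries stood apart in the lymphocyte genes. LV Sham Control replicate 1 held its group's highest value for 20 of the 28 genes and LV Sham PD replicate 1 for 17. The lowest value of its group fell in Kidney 5/6Nx Control replicate 6 for 15 genes and in replicate 1 of that group for 12, in Kidney 5/6Nx PD replicate 6 for 18 and in LV 5/6Nx PD replicate 6 for 17. Replicate numbers only name libraries. Whether the rats of a group were housed or operated together is not in the labels.

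The first comparison asked how the remnant kidney of 5/6Nx Control rats differed from the intact kidney of Sham Control rats. Of the 27 genes tested, 23 rose and none fell. Over all 16419 genes tested 24.4% were higher and 27.7% were lower. The median log2 change was 0.82 over the lymphocyte genes and -0.01 over all genes tested. The median log2 change was 1.07 for genes of the T cell receptor, 0.86 for T cell surface and signalling, 0.82 for B cells and 0.48 for cytotoxic and NK genes. Sums of reads gave another order. Summed B cell genes had medians of 90.6 and 468 reads in Sham and remnant kidneys, summed T cell receptor genes 686 and 2154. Cd4 held most of the T cell receptor reads, and its medians differed less than those of the CD3 chains, as given below. Pax5 was the gene without a test, as too few libraries reached 10 reads. A gene needed 10 reads in at least 6 libraries, which the 7 remnant kidneys alone could supply. Ctla4, Trat1, Ms4a1 and Blk, among others, met this only with the remnant kidneys counted. Without a filter 24 of 28 lymphocyte genes rose and none fell, where 4286 of all 20400 genes rose. These are tissue homogenates, in which more lymphocytes and more RNA per lymphocyte cannot be told apart.

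The invariant CD3 chains, which carry the receptor to the surface and signal for it, rose together. Cd3e (ENSRNOG00000016069) had 11.3 to 58.1 normalized reads in Sham Control kidneys (median 29.4) and 88.0 to 259 in remnant kidneys (median 185). Every remnant kidney lay above every Sham kidney, with a median 6.28 times as high and a log2 change of 1.16 ± 0.19 (SE, limma, adjusted p = 3.0e-04). Cd3d (ENSRNOG00000015994) went from 0 to 24.9 reads (median 19.3) to 75 to 227 (median 147), again without overlap, with medians 7.61-fold apart. Its log2 change of 1.35 ± 0.18 was the largest of the 27 genes tested on the deposited scale (adjusted p = 8.0e-05). The single listed 0 among its Sham values was in replicate 1. For Cd3g the ranges were 8.50 to 45.3 in Sham and 70.0 to 274 in remnant kidneys. For Cd247, the zeta chain, they were 4.72 to 37.4 and 57.0 to 199. Both rose without overlap, by 1.24 ± 0.19 and 1.07 ± 0.17 on the log2 scale, with medians 6.21-fold and 6.17-fold apart.

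The co-receptors moved less evenly. Cd8a, a chain of the cytotoxic T cell co-receptor, had 68.5 to 126 reads in Sham kidneys (median 110) and 99.5 to 504 in remnant kidneys (median 224). It rose by 0.70 ± 0.21 (adjusted p = 0.013), with 6 of 7 remnant kidneys above all Sham kidneys. Its partner Cd8b had 11.3 to 56.2 and 19.4 to 100.3 reads, and its log2 change of 0.32 ± 0.17 did not pass (adjusted p = 0.11). Cd4, the helper T cell co-receptor that rat macrophages also carry, spanned 255 to 736 reads in Sham and 250 to 2370 in remnant kidneys (medians 476 and 1204). Here 5 of 7 remnant kidneys lay above every Sham kidney and 1 lay below every one of them. The change in Cd4 was 0.98 ± 0.36 (adjusted p = 0.032). In the same comparison 16 of 17 macrophage and dendritic cell markers rose, and their summed level was 3476 to 7461 reads in Sham and 9660 to 28342 in remnant kidneys. The part of those cells in the Cd4 values was not tested.

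Among the surface and signalling genes of T cells, 7 of 8 rose. Lck (ENSRNOG00000009705), the kinase that starts receptor signalling, had 49.7 to 147 reads in Sham kidneys (median 93.9) and 182 to 537 in remnant kidneys (median 385). The groups did not overlap, the medians differed 4.10-fold, and the log2 change was 1.25 ± 0.19 (adjusted p = 1.5e-04). Zap70, the kinase recruited to the zeta chain, rose from a median of 28.4 to 122 reads (0.85 ± 0.17), with 6 of 7 remnant kidneys above all Sham kidneys. The adhesion receptor Cd2 went from 23.1 to 64.0 reads to 81.0 to 282, and the receptor Cd6 from 66.6 to 163 reads to 175 to 385. Neither gene overlapped between the groups.

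Costimulatory genes split. Ctla4, the inhibitory receptor of activated and regulatory T cells, was listed at 0 to 5.63 reads in Sham Control kidneys and had 11.4 to 50.9 in remnant kidneys (median 30.7). Trat1, an adaptor associated with the T cell receptor, was at 0 to 5.91 and 9.27 to 50 reads. These ranges did not overlap, and the log2 changes were 0.87 ± 0.12 and 0.79 ± 0.13. Cd27, a receptor of the tumour necrosis factor family found on T cells, B cells and plasma cells, rose from a median of 21.0 to 53.0 reads (0.64 ± 0.16, adjusted p = 3.9e-03). Cd28, the activating counterpart of Ctla4, had 5.63 to 46.3 reads in Sham and 13.5 to 42.0 in remnant kidneys. The remnant range of Cd28 lay within the Sham range, and its change was 0.10 ± 0.12 (adjusted p = 0.51).

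**Figure D1:**
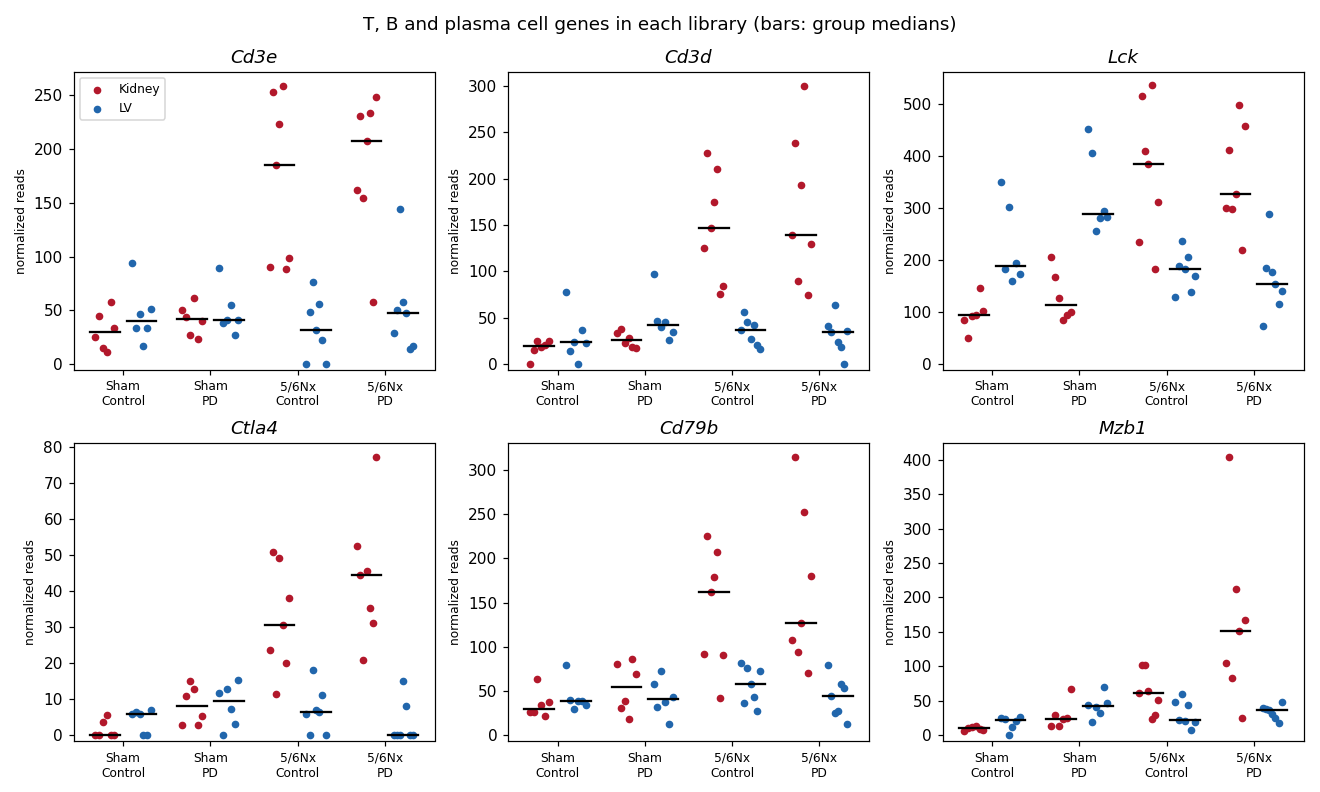
Normalized reads of 6 T, B and plasma cell genes in each library, by surgery and treatment (x axis), with kidney libraries in red, LV libraries in blue and a black bar at each group median. Kidney points of the 5/6Nx Control group lie above all those of the Sham Control group for Cd3e, Cd3d, Lck, Ctla4 and Mzb1, and 6 of 7 do so for Cd79b, whereas LV points of the surgery groups overlap for these genes.

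All 4 B cell genes tested rose. Cd79b, a signalling chain of the B cell receptor, had 21.7 to 63.1 reads in Sham kidneys (median 30.1) and 42.0 to 226 in remnant kidneys (median 162), with 6 of 7 remnant kidneys above every Sham kidney. The medians differed 5.37-fold, and the log2 change was 0.92 ± 0.19 (adjusted p = 1.3e-03). Cd79a, the other chain, rose less, from a median of 47.8 to 107 reads (0.55 ± 0.19, adjusted p = 0.023). Ms4a1, which encodes CD20, had 0 to 14 reads in Sham and 12 to 71.7 in remnant kidneys. Blk, a kinase of B cells, had 0 to 13.2 and 28.7 to 93.0 reads and did not overlap between the groups. Both changed by 0.82 on the log2 scale, with medians 7.94-fold apart for Ms4a1 and 7.25-fold for Blk. Pax5, the transcription factor that fixes B cell identity, was listed at 0 in all 6 Sham Control kidneys and had 0 to 22.8 reads (median 17.6) in remnant kidneys, 5 of 7 above 0.

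Of the antibody-secretion genes, Mzb1, a chaperone of immunoglobulin assembly in the endoplasmic reticulum, had 5.66 to 13.1 reads in Sham kidneys and 24.2 to 103 in remnant kidneys (median 61.5). The medians differed 6.15-fold, and the log2 change was 0.79 ± 0.14 (adjusted p = 3.9e-04). Pou2af1, a coactivator of immunoglobulin transcription, had 73.6 to 128 and 158 to 394 reads and rose by 0.89 ± 0.15. No library of 1 group reached the range of the other for either gene.

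Cytotoxic and NK genes also split. The NK receptors Klrd1 (CD94) and Ncr1 (NKp46) rose from medians of 8.00 and 4.86 reads to 30.2 and 18.1, by 0.47 ± 0.14 (adjusted p = 0.014) and 0.52 ± 0.15 (adjusted p = 0.011). Prf1, which encodes the pore-forming protein perforin, and Nkg7, a granule membrane protein, rose by 0.50 ± 0.19 (adjusted p = 0.038) and 0.51 ± 0.19 (adjusted p = 0.036). For each of these 4 genes 5 of 7 remnant kidneys lay above all Sham kidneys, and the medians differed 3.77-fold for Klrd1, 3.72-fold for Ncr1, 2.41-fold for Prf1 and 4.22-fold for Nkg7. The granzymes, proteases delivered into target cells, gave no call. Gzma had 0 to 16.5 reads in Sham and 0 to 29.9 in remnant kidneys (0.01 ± 0.21). Gzmb had 0 to 38.4 and 0 to 141 reads, with medians of 19.0 and 10.7 (0.10 ± 0.27). The Gzmb value of 141 was in 1 remnant kidney, and the others reached at most 33.5. Gzmb lies among closely similar protease genes and Klrd1 among related receptor genes, so how reads were divided between the copies is uncertain.

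**Figure D2:**
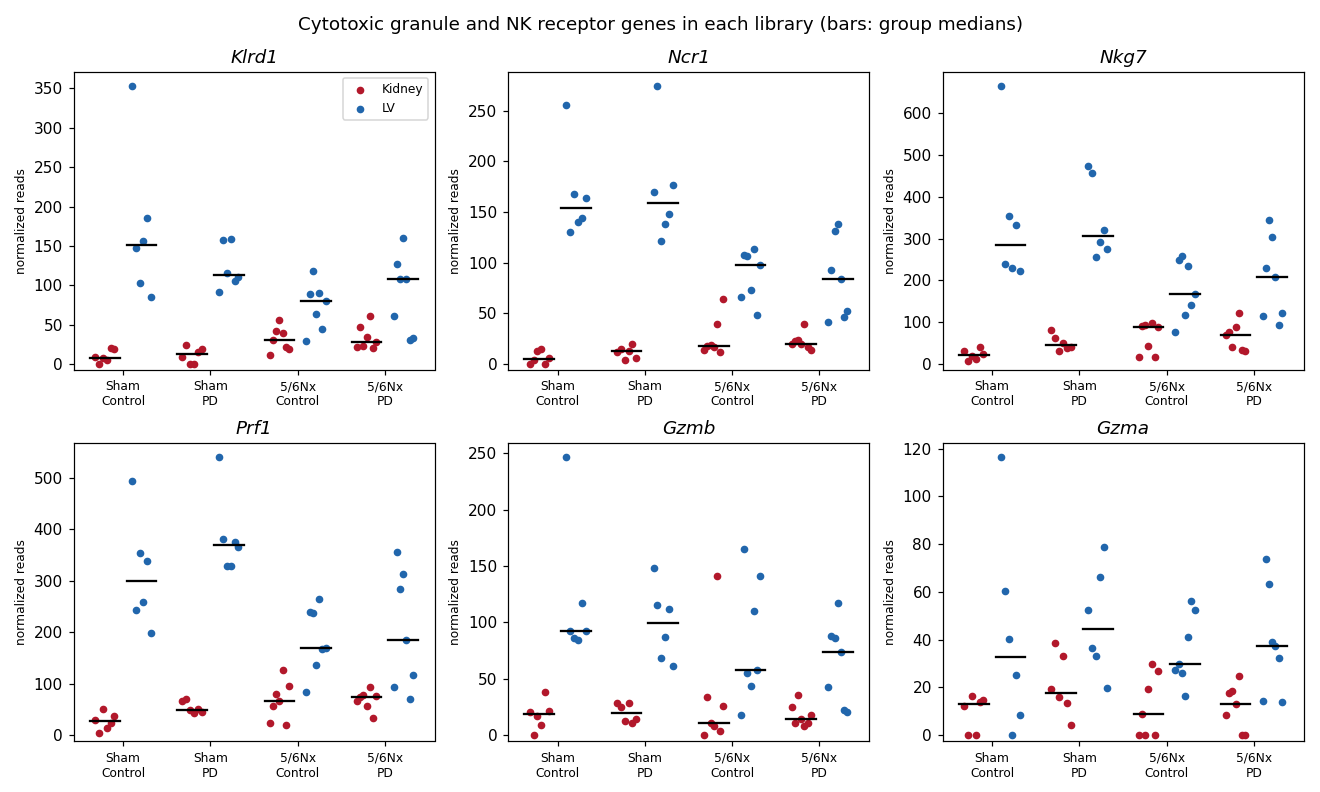
Normalized reads of the 6 cytotoxic granule and NK receptor genes in each library, by surgery and treatment (x axis), with kidney libraries in red, LV libraries in blue and a black bar at each group median. In Sham Control rats all LV points lie above all kidney points for Klrd1, Ncr1, Nkg7, Prf1 and Gzmb, and Gzma overlaps between the tissues.

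Ranges that did not overlap were found for 12 of the 27 tested genes, all higher in the remnant kidney, against 11% of all genes tested. Some of the 12, Ctla4, Trat1, Blk and Mzb1 among them, met the read filter only with the remnant kidneys counted. Of the 23 calls, 18 held in each alternative in which the gene was tested, 11 of these with all 22 alternatives run. Trat1 was tested in 15 of them, as it fell under the filter in the others. The call was lost for Prf1 in 10 of 22 alternatives, for Nkg7 in 9 of 21 and for Cd4 in 9 of 22, most of them leaving out 1 library (adjusted p up to 0.094, 0.082 and 0.075). For Prf1 these were Sham Control replicates 1, 2, 4 and 5 and 5/6Nx Control replicates 2, 3, 4, 5 and 7. For Nkg7 they were Sham Control replicates 2, 3, 4 and 6 and 5/6Nx Control replicates 2, 3, 5 and 7, and for Cd4 Sham Control replicates 1, 2 and 4 and 5/6Nx Control replicates 2, 3, 4, 5 and 7, each left out alone. It was lost for Cd79a without Sham Control replicate 4 (adjusted p = 0.053), and for Ncr1 with listed zeros taken as missing (adjusted p = 0.066).

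The same comparison in PD rats, which shares no library with that in Control rats, gave 21 genes higher and none lower of 27 tested. Over all 16450 genes tested 20.2% were higher and 19.9% lower. The remnant kidneys alone could meet the read filter here too. Without a filter 22 of 28 lymphocyte genes were higher and none lower, where 3483 of all 20422 genes were higher. Cd3d had 17.3 to 37.9 reads in Sham PD and 74.5 to 300.03 in 5/6Nx PD kidneys, and Cd3g 0 to 61.5 and 81.4 to 279. Both separated the groups fully. Cd3e had 22.9 to 61.6 and 57.8 to 248 reads, with 6 of 7 remnant kidneys above all Sham kidneys and replicate 6 within the Sham range. The log2 changes of these CD3 genes were 1.19 ± 0.18, 1.34 ± 0.22 and 1.09 ± 0.17. In this comparison 9 genes did not overlap, all of them higher, against 7.75% of all genes tested.

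Values of Cd4, Cd8b, Pou2af1 and Mzb1 in PD rats follow, and their 5/6Nx effects were tested against those in Control rats below. Cd4 had 364 to 924 reads in Sham PD and 958 to 1619 in 5/6Nx PD kidneys, without overlap (0.95 ± 0.18, adjusted p = 9.2e-04). Cd8b, not called in Control rats, rose by 0.42 ± 0.13 (adjusted p = 0.022) on overlapping ranges of 13.5 to 43.4 and 27.4 to 105 reads. Pou2af1 had 73.5 to 154 and 261 to 411 reads and the smallest adjusted p of the genes in this comparison (3.8e-05, log2 change 0.99 ± 0.12). Mzb1 reached its highest levels here, with 12.7 to 67.0 reads in Sham PD and 25.1 to 404 in 5/6Nx PD kidneys (medians 23.7 and 151), a log2 change of 1.09 ± 0.27.

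Of the 6 cytotoxic and NK genes only Klrd1 was called in PD rats (0.53 ± 0.16, adjusted p = 0.017). Prf1 had 43.6 to 69.7 reads in Sham PD and 32.7 to 93.5 in 5/6Nx PD kidneys (0.14 ± 0.10), and Nkg7 30.4 to 81.0 and 32.0 to 122 (0.15 ± 0.15). The ranges overlapped for both. Ncr1 had 4.22 to 20.1 and 14.1 to 39.2 reads (0.24 ± 0.10, adjusted p = 0.053). That these genes passed only in Control rats, and Cd8b only in PD rats, does not show that the treatments differ. When the 5/6Nx effect in PD rats was tested against that in Control rats, none of the 28 genes passed in limma (smallest adjusted p = 0.95, 1 gene at an unadjusted p under 0.05), and none passed by limma-voom. Over all 17096 genes this test called 0%, so it does not show that the treatments are alike either. The calls of Ms4a1 with limma-voom (adjusted p = 0.12) and of Klrd1 with listed zeros taken as missing (adjusted p = 0.075) were lost in PD rats. The other 19 held in each alternative in which they were tested, 15 of them with all 22 run.

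Further genes of the same cells, from lists of known markers, were tested in the comparison of remnant with intact kidneys in Control rats. Of 34 other T cell genes tested, 24 rose and 2 fell. Lat, the adaptor that Zap70 phosphorylates, had 45.4 to 78.8 reads in Sham and 149 to 303 in remnant kidneys (1.10 ± 0.12). Tbc1d10c rose by 1.11 ± 0.13. The largest change of that list was a fall. Sit1, an adaptor described in lymphocytes, had 651 to 928 reads in Sham and 116 to 553 in remnant kidneys, without overlap, and fell by 1.16 ± 0.23. It had at most 47.7 reads in any LV library.

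Of 16 other B cell genes tested, 13 rose and none fell. Cr2, the complement receptor of B cells and follicular dendritic cells, was at 0 to 3.88 reads in Sham and 21.1 to 96.8 in remnant kidneys (1.20 ± 0.13). Spib, a transcription factor of B cells and plasmacytoid dendritic cells, rose by 1.20 ± 0.15, both without overlap, and Cd37, a tetraspanin of B cells, rose by 1.29 ± 0.22 on overlapping ranges. Of 8 other plasma cell genes tested, 2 rose and 2 fell. Jchain, which joins immunoglobulin A and M into polymers, had 15.0 to 57.5 reads in Sham and 151 to 1078 in remnant kidneys (2.09 ± 0.36). Sdc1, a proteoglycan of plasma cells and also of epithelium, rose by 1.67 ± 0.16. Xbp1 and Derl3, genes of the secretory stress response that other cells also use, fell by 0.29 and 0.21 on overlapping ranges.

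Of 16 other cytotoxic and NK genes tested, 9 rose and 1 fell. Klrb1a had 21.7 to 54.4 reads in Sham and 77.5 to 209.8 in remnant kidneys (0.99 ± 0.14). Klrb1c, of the same receptor family, went the other way, from 88.6 to 261 reads to 8.43 to 93.0 (-0.89 ± 0.18, adjusted p = 1.3e-03), with overlap between the groups. Tyrobp, a signalling adaptor of NK cells that macrophages share, rose by 1.66 ± 0.19, and Cst7, an inhibitor of granule proteases that macrophages also make, by 1.41 ± 0.21. Members of the Klrb1 family are similar in sequence, so their reads may be divided between them unevenly.

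Chemokines and lymphoid tissue genes that guide lymphocytes were higher too, 10 of 16 tested, with none lower. Ccl19 and Ccl21, ligands of the receptor CCR7, had 113 to 173 and 201 to 589 reads in Sham kidneys and 332 to 1958 and 996 to 5926 in remnant kidneys. Neither overlapped, and the log2 changes were 2.27 ± 0.30 and 2.47 ± 0.39. Cxcl13, which attracts B cells, rose by 1.15 ± 0.36 (adjusted p = 0.015) on overlapping ranges, and Cxcl16 by 1.24 ± 0.15.

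Other cells moved in the same comparison. Of 10 pan-leukocyte genes tested, 9 rose, and their summed level was 4305 to 7211 reads in Sham and 7890 to 18929 in remnant kidneys. Of 8 kidney epithelial markers 6 fell and of 6 red cell markers 5 fell, whereas all 6 kidney injury markers and 4 of 6 fibroblast markers rose. The summed fibroblast markers were 6782 to 12996 reads in Sham kidneys and 9439 to 67963 in remnant kidneys. Remnant kidney replicates 6 and 1, which held most of the lowest lymphocyte values, also had the lowest fibroblast sums (9439 and 11740) and the lowest pan-leukocyte sums (7890 and 9954). The part of these differences in the lymphocyte values was not tested.

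In the LV of Control rats 0 of 25 lymphocyte genes tested passed in limma between 5/6Nx and Sham, and 6 had an unadjusted p under 0.05. Limma-voom likewise called 0, and limma-voom with sample quality weights called 1. The background was 0.0697% of 15792 genes, so calls in this comparison were few among all genes. The 6 cytotoxic and NK genes had a median log2 change of -0.54. Ncr1 had 131 to 255 reads in Sham Control and 48.0 to 113 in 5/6Nx Control LV, and every 5/6Nx library lay below every Sham library. Its log2 change of -0.54 ± 0.13 did not pass (adjusted p = 0.088), but it passed with quality weights (adjusted p = 0.046) and without LV 5/6Nx Control replicate 3 (adjusted p = 0.045). Ncr1 was the single gene of the 25 whose ranges did not overlap, against 0.646% of genes that were lower without overlap. Klrd1 had 85.0 to 353 and 29.2 to 118 reads (-0.65 ± 0.19, adjusted p = 0.14), and Nkg7 222 to 666 and 75.9 to 257 reads (-0.65 ± 0.22, adjusted p = 0.16). In LV Sham Control the highest value of both was in replicate 1.

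In the LV of PD rats 7 of 24 genes fell and none rose, beside 19.6% lower and 18.2% higher of all 15800 genes tested. Cd4 changed most, with 759 to 2017 reads in Sham PD and 216 to 775 in 5/6Nx PD LV (medians 1135 and 301). All but 1 of the 7 5/6Nx libraries lay below every Sham library, and the log2 change was -1.47 ± 0.26 (adjusted p = 1.1e-03). Lck had 256 to 452 and 72.8 to 289 reads (-0.74 ± 0.17, adjusted p = 4.2e-03), and Zap70 141 to 210.2 and 37.1 to 182 reads (-0.63 ± 0.15, adjusted p = 6.3e-03). In each of the 2 kinase genes 6 of 7 5/6Nx libraries were below all Sham libraries.

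Prf1, Ncr1, Nkg7 and Cd2 were the other genes that fell. Prf1 had 328 to 540.4 reads in Sham PD and 70.2 to 356 in 5/6Nx PD LV (-0.78 ± 0.23, adjusted p = 0.015). Ncr1 had 122 to 275 and 41.4 to 139 reads (-0.62 ± 0.16, adjusted p = 9.4e-03), Nkg7 changed by -0.60 ± 0.20 (adjusted p = 0.030) and Cd2 by -0.57 ± 0.18 (adjusted p = 0.023). The CD3 chains gave other values. Cd3e had 26.6 to 89.7 and 13.7 to 145 reads (-0.03 ± 0.19, adjusted p = 0.91), and Cd3d and Cd3g changed by -0.30 ± 0.19 and -0.15 ± 0.22, none of them called. Without LV Sham PD replicate 1 the fall of Nkg7 and Cd2 no longer passed (adjusted p = 0.070 and 0.055) and 5 genes remained. The call of Nkg7 was also lost without LV Sham PD replicate 2 or without LV 5/6Nx PD replicate 1 or 6 (adjusted p = 0.055 to 0.063).

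Macrophage markers were lower in the same LV comparison, 13 of 17 with none higher, and their summed level was 25176 to 35925 reads in Sham PD and 7107 to 17301 in 5/6Nx PD libraries. Of the pan-leukocyte genes 7 of 10 fell, of the fibroblast markers 5 of 6, of the endothelial markers 4 of 5 and of the red cell markers 2 of 6, and of the cardiomyocyte markers 5 of 6 rose. Of 19 other cytotoxic and NK genes tested 11 fell, and of 33 other T cell genes 11 fell and 3 rose. The part of macrophages in the LV values of Cd4 was not tested.

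**Figure D3:**
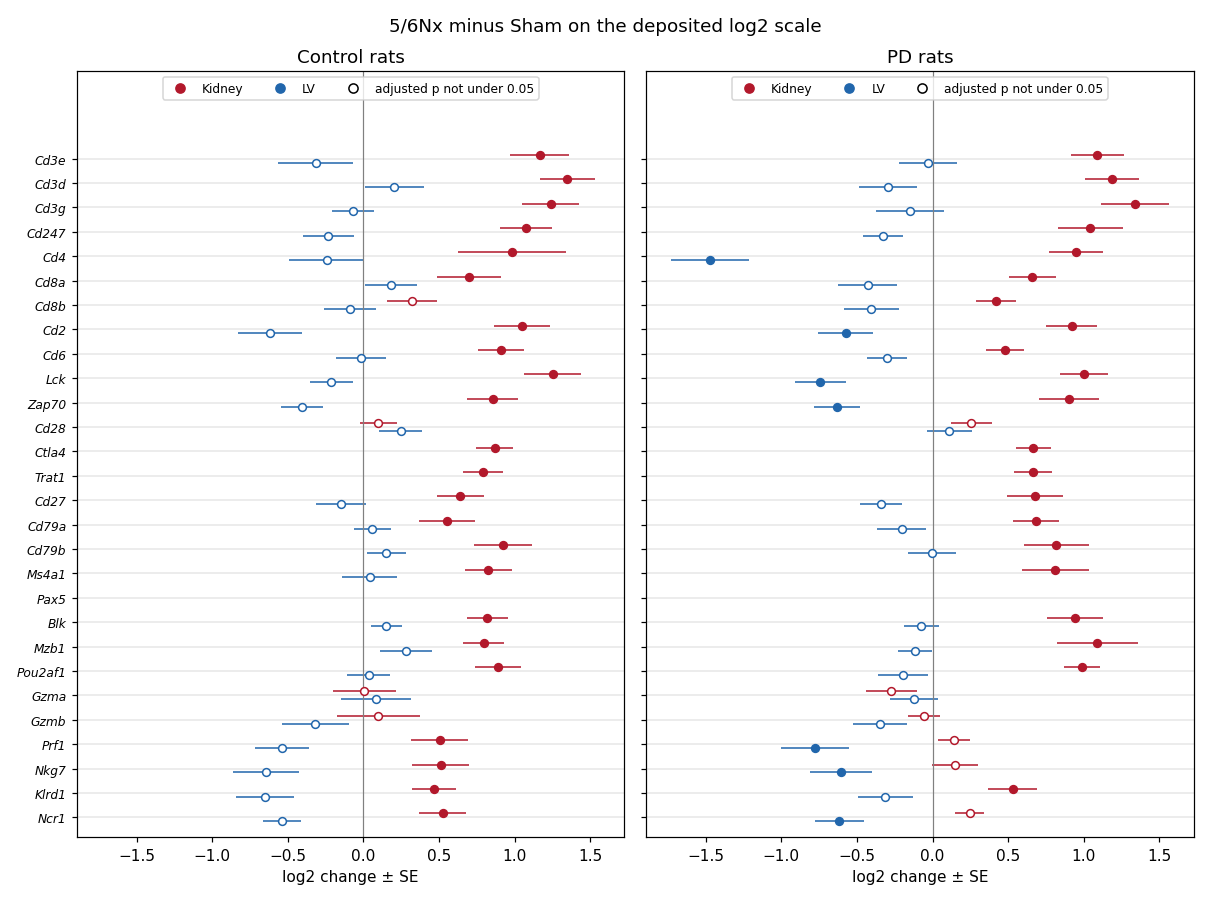
Difference of 5/6Nx minus Sham on the deposited log2 scale with its SE (x axis) for each gene (y axis), in Control rats (left) and PD rats (right), for kidney (red) and LV (blue); filled points passed at an adjusted p under 0.05 and genes without a point were not tested. Kidney points lie to the right of 0 for 23 called genes in Control and 21 in PD rats, and the 7 called LV points in PD rats lie to the left.

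The effect of 5/6Nx in the kidney was then tested against that in the LV. In Control rats the difference was positive and called for 20 of 28 genes and negative for none, where 16.1% of 17454 genes were called positive. Another 17.3% were called negative. In PD rats it was positive for 25 of 28 and negative for none, against 22.1% of 17452 genes positive and 22% negative. These tests use the same libraries as the comparisons above. The remnant kidneys alone could meet the read filter here too, and Ctla4, Trat1 and Pax5 had no test in the LV alone. Without a filter 20 of 28 genes were positive in Control rats, where 2872 of all 20622 genes were. In PD rats 25 of 28 were positive without a filter, where 4064 of all 20621 genes were. The largest difference in Control rats was for Cd2, with a log2 change of 1.05 in the kidney and -0.62 in the LV, a difference of 1.67 ± 0.30 (adjusted p = 1.8e-04). In PD rats it was for Cd4, with 0.95 and -1.47, a difference of 2.42 ± 0.33 (adjusted p = 3.9e-06). Lck differed by 1.46 ± 0.24 in Control and 1.74 ± 0.24 in PD rats, and Cd3e by 1.48 ± 0.33 and 1.12 ± 0.27. Gzma, Gzmb and Cd28 were called in neither. With TMM scaling, which moved the median difference of all genes by 0.12 in PD rats, the count was 17 in Control and 25 in PD rats. With limma-voom it was 15 and 22. With TMM scaling Cd3d, Ms4a1 and Pou2af1 lost their calls in Control rats (adjusted p = 0.073, 0.064 and 0.25). The call of Cd4 in Control rats was lost without LV Sham Control replicate 1 (adjusted p = 0.071) and in 3 other alternatives, limma-voom among them (adjusted p = 0.052 to 0.064).

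Between tissues the order of levels depended on the gene and the surgery. In Sham Control rats 12 of 24 genes tested were lower in the kidney than in the LV and 1 was higher, where 37.4% and 41.2% of all 16520 genes were. Prf1 had 4.28 to 51.1 reads in kidney and 198 to 494 in LV, and Ncr1 0 to 15.0 and 131 to 255. Neither overlapped, and the log2 differences were -1.89 ± 0.17 and -1.80 ± 0.14. Lck, Zap70, Cd2, Cd247 and Cd27 were also lower in kidney without overlap. The higher gene was Pou2af1, with 73.6 to 128 reads in kidney and 0 to 28.3 in LV (1.13 ± 0.14). The CD3 chains Cd3e, Cd3d and Cd3g overlapped between the tissues and were not called (log2 differences of -0.20, -0.16 and -0.33).

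In 5/6Nx Control rats 14 of 28 genes were higher in the kidney and 7 were lower, beside 38.9% and 32.6% of all 16545 genes. Cd3e had 88.0 to 259 reads in the remnant kidney and 0 to 75.9 in the LV, and Pou2af1 158 to 394 and 4.51 to 20.4. Both separated the tissues, as did Cd3d, Cd3g and Cd6. The 7 lower genes were Cd28 and all 6 cytotoxic and NK genes. Among these Ncr1 had 12 to 64.1 reads in kidney and 48.0 to 113 in LV (-0.74 ± 0.14), and 6 of 7 kidneys lay below every LV library. Prf1 differed by -0.85 ± 0.19. The call of Gzmb was lost without Kidney 5/6Nx Control replicate 6 (adjusted p = 0.051). The LV value of Cd3e was listed at 0 in 2 libraries.

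Treatment with PD was compared with the catheter alone in each tissue and surgery group. None of the lymphocyte genes passed in limma in any of these 4 comparisons. The genes tested numbered 22 in the Sham kidney, 28 in the 5/6Nx kidney, 25 in the Sham LV and 23 in the 5/6Nx LV. In limma 4, 1, 3 and 2 genes had an unadjusted p under 0.05, and limma-voom called 0 in each. Of all genes 0.143%, 0.0121%, 1.23% and 0.0896% were called, shares that varied with the model fitted. The authors' own DESeq2 tests called more genes than limma did in each of these comparisons. Cd3e had medians of 29.4 reads in Sham Control and 41.7 in Sham PD kidneys, and of 185 and 207 in 5/6Nx Control and 5/6Nx PD kidneys. The 95% interval of its log2 change was -0.13 to 0.45 in Sham and -0.37 to 0.54 in 5/6Nx kidneys. Changes within these bounds could not be told from 0 with these libraries.

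Mzb1 was the gene with the smallest p in both the 5/6Nx kidney and the Sham LV. Its kidney values were 5.66 to 13.1 reads in Sham Control and 12.7 to 67.0 in Sham PD, with a log2 change of 0.36 and a 95% interval of 0.09 to 0.62 (adjusted p = 0.17). In the authors' own DESeq2 test, Mzb1 was called higher with PD in Sham kidneys, at an adjusted p under 0.05. In 5/6Nx kidneys it had 24.2 to 103 reads in Control and 25.1 to 404 in PD, with a change of 0.65 and an interval of 0.09 to 1.21 (adjusted p = 1.0). In the LV of Sham rats it changed by 0.45 (interval 0.11 to 0.79, adjusted p = 0.15). The PD range ran higher in each case, and no change passed over all genes in limma. Cd4 in the LV had medians of 786 reads in Sham Control, 1135 in Sham PD, 658 in 5/6Nx Control and 301 in 5/6Nx PD. Its change with PD was 0.59 in Sham and -0.64 in 5/6Nx LV, and the difference of these of -1.23 (interval -2.01 to -0.45) did not pass (adjusted p = 0.095), but it passed once libraries were weighted by quality in limma-voom (adjusted p = 0.015). Over all 16312 genes 0.693% were called in that test of differences.

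**Figure D4:**
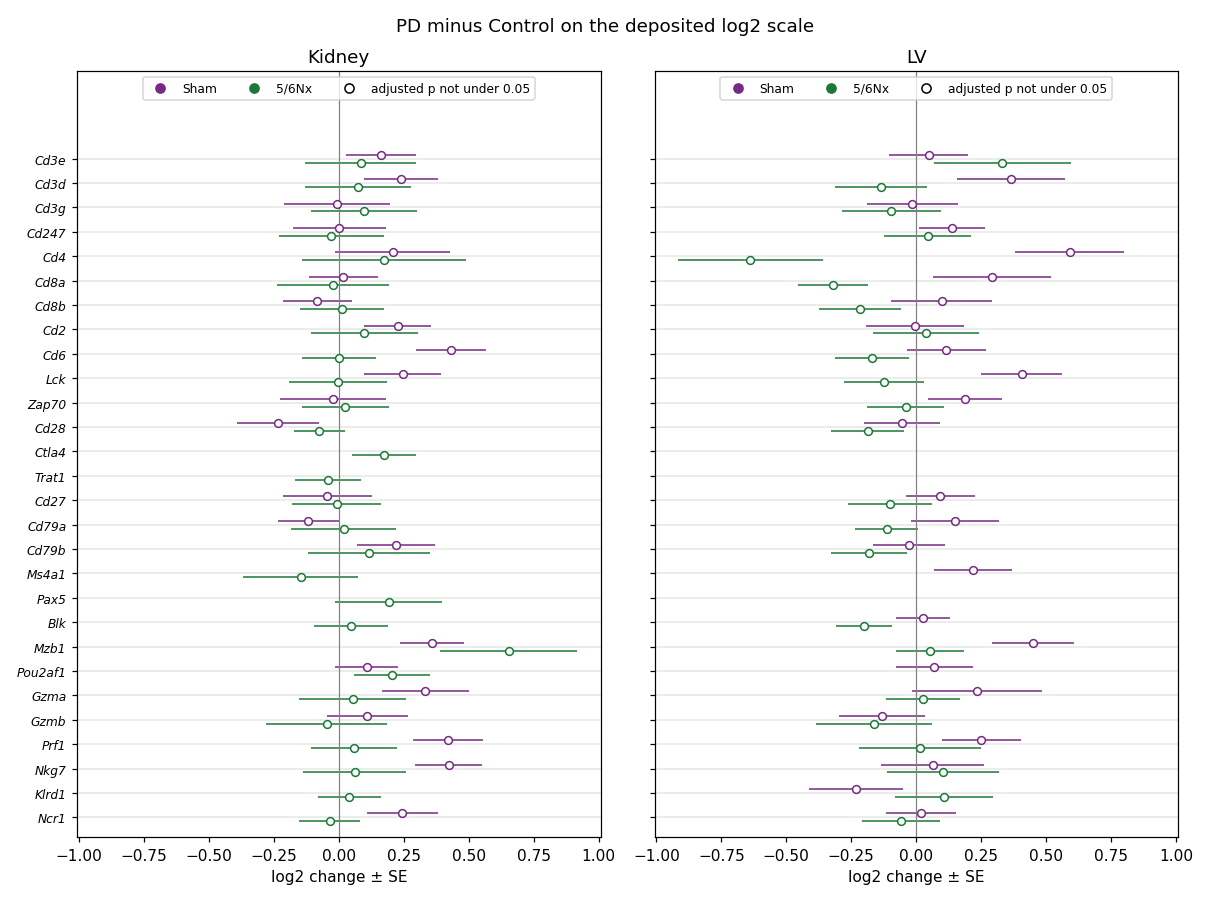
Difference of PD minus Control on the deposited log2 scale with its SE (x axis) for each gene (y axis), in kidney (left) and LV (right), for Sham rats (purple) and 5/6Nx rats (green); open points did not pass at an adjusted p under 0.05 and genes without a point were not tested. All points are open, and they lie between -0.64 and 0.65.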

How the data were processed

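The authors trimmed reads with Trim Galore and cutadapt, aligned them to rn6 with HISAT2, quantified genes by StringTie2 and, in the authors' own tests, used DESeq2. The deposited values are log2 values, and their scale is not named. Inverting a variance-stabilising transformation gave whole reads for 100% of the values (largest deviation 5.77e-08). How reads shared by similar genes or by opposite strands were counted is not given in the sources used here. Columns of the authors' own comparisons hold fold changes and p-values and were not used.

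Groups were compared on the deposited log2 values with limma 3.58.1 (R 4.3.3) and its trend and robust options. A gene was tested where the libraries with 10 normalized reads or more numbered at least the size of the smaller group, with only the groups compared in the fit and Benjamini-Hochberg adjustment over all genes tested. The design named a test for counts, FPKM or TPM first, and limma took its place because of the unit. The p-values set a group difference against the spread between libraries. Kidney and LV libraries were taken as independent where tissues were compared, although they may come from the same rats. The genes and lists were chosen with earlier results of these data known. All matched genes of the set are named, and of other lists up to 4 called genes with the largest change in the remnant kidney of Control rats, as values or counts. A few of the latter are not reported here. Simulated reads with known changes were used to test the fits. Alternatives were no filter, at least 50 reads, log2(normalized reads + 1), TMM scaling, limma-voom with and without quality weights, all 4 groups of a tissue, and single libraries left out, in turn, of 7 of the 8 comparisons of groups within a tissue (not of PD with Control in 5/6Nx LV). Zeros as missing, size factors within a fit, and the libraries that stood apart left out of comparisons of tissues or interactions were added after seeing the data.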

Additional observations from a re-analysis of the deposited data

Results flagged for a closer look

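Among 223 sets of 1 gene in 1 group, 15 held a library far from the others on the log2 scale, and chance would give about 1 in 20. Kidney 5/6Nx PD replicate 6 was low for Cd3e (57.8 normalized reads, next 155), Cd247 (29.7, next 93.0) and Cd27 (15.2, next 56.1). LV Sham Control replicate 1 was high for Gzmb (247 reads, next 118), Ncr1 (255, next 168), Cd8b (126, next 37.5) and Cd79b (79.6, next 39.5). LV Sham PD replicate 1 was high for Prf1 (540.4 reads, next 381) and Cd3d (96.7, next 45.8). Cd4 was low in LV 5/6Nx Control replicate 1 (191 reads, next 594). Listed zeros stood apart for Cd3d in Kidney Sham Control replicate 1 (0, next 14.6), Cd8b in LV 5/6Nx PD replicate 6 (0, next 15.5) and Mzb1 in LV Sham Control replicate 3 (0, next 12.4). Pax5 was high in Kidney Sham PD replicate 4 (12.8 reads, next 1.43) and in LV 5/6Nx PD replicate 5 (15.2, all others listed at 0).

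The effect of 5/6Nx differed between kidney and LV for 20 genes in Control rats and for 25 in PD rats by the interaction test in limma. In Control rats the difference on the log2 scale was 1.48 for Cd3e, 1.46 for Lck, 1.67 for Cd2, 1.26 for Zap70, 1.06 for Ncr1, 1.12 for Klrd1 and 1.23 for Cd4. In PD rats it was 1.12 for Cd3e, 1.74 for Lck, 1.49 for Cd2, 1.53 for Zap70, 0.86 for Ncr1, 0.84 for Klrd1, 2.42 for Cd4 and 1.20 for Mzb1.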

How the results depend on the processing

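No call of a lymphocyte gene reversed its direction under any alternative. With at least 50 reads required, 14 of 14 genes still tested were called in the kidney of Control rats in place of 23 of 27, and 12 of 17 between kidney and LV of 5/6Nx Control rats in place of 21 of 28, since fewer genes entered. The remnant kidneys alone could meet this filter as well, so genes high in them were favoured. Of all genes under it, 3443 of 14252 were higher in the kidney of Control rats. Between the tissues of 5/6Nx Control rats 10601 of 14539 were called. With sample quality weights 1 gene was called in the LV of Control rats (Ncr1) and 1 for the difference of the 5/6Nx effect between PD and Control LV (Cd4), where the fit without weights gave none, and the cause was not tested. Leaving out each library gave 19 to 23 genes in the kidney of Control rats, 19 to 23 in the kidney of PD rats, 5 to 8 in the LV of PD rats and 0 to 1 in the LV of Control rats. Comparisons of PD with Control called 0 lymphocyte genes under every alternative run here, whereas the authors' own DESeq2 test called Mzb1 in Sham kidneys. Klrb1c, outside the set of 28 genes, was called lower with PD by that test. The authors' supplement lists only the genes of largest change, so other lymphocyte genes they called may be missing from it. Between kidney and LV of 5/6Nx Control rats, calls of Cd247, Mzb1, Gzma and Gzmb were lost under 1 or more alternatives (adjusted p up to 0.054, 0.060, 0.11 and 0.056). For the difference of the 5/6Nx effect between tissues, 15 of 20 calls in Control and 20 of 25 in PD rats held in each alternative in which the gene was tested, and the counts were 15 to 22 in Control and 19 to 25 in PD rats. With TMM scaling the genes called over the whole table for it were 3080 higher and 2007 lower in Control rats, against 2806 and 3016, and for the difference between PD and Control LV 34 and 62, against 54 and 59. In the LV of Control rats all genes called numbered 11, but 505 with quality weights and 263 with all 4 groups in one fit. For PD against Control they ranged from 9 to 182 in the Sham kidney (23 as reported), 0 to 20 in the 5/6Nx kidney (2), 107 to 1381 in the Sham LV (194) and 9 to 61 in the 5/6Nx LV (14), and for the difference between PD and Control LV from 57 to 993 (113). No paired analysis was run, because the labels name no rat, although the library numbers of heart and kidney match at a constant difference. How a pairing by rat would change the comparisons of tissues was not tested. Genes such as Pax5 and Trat1, under 10 reads in all Sham Control kidneys, rest on few reads per library.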
